A study of Mus musculus with 9 samples.

Results

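Phase II enzymes attach a polar group to drugs, hormones, bile acids and bilirubin, so that the product can leave the hepatocyte in bile or blood. The genes of 3 such enzyme classes were followed in the livers of 9 mice. They were chosen by symbol, as every UDP-glucuronosyltransferase of families 1 to 3 (Ugt), every cytosolic sulfotransferase (Sult) and every soluble glutathione S-transferase (Gst) of the alpha, kappa, mu, omega, pi, theta and zeta types, with pseudogenes left out. Of 17846 genes in the tables, 54 met this rule, namely 20 UGT, 12 SULT and 22 GST genes. Another 10 genes whose RefSeq symbol fits the rule, among them Sult2a1, were not analysed here.

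All mice were male, wild-type C57/BL animals. The 3 Control mice ate normal chow and were sedentary. The 3 NASH mice ate an atherogenic (Ath) diet with cholesterol and cholate, which produces non-alcoholic steatohepatitis, for 20 weeks and were sedentary. The 3 NASH+Exercise mice ate the Ath diet for 12 weeks and then ran on a treadmill for 8 weeks from 20 weeks of age, and all mice were fasted overnight before sacrifice. The Control mice differed from both other groups in diet, whereas NASH and NASH+Exercise mice differed in training. NASH+Exercise and Control mice differed in both, so diet and training cannot be told apart between them. A trained group on normal chow was not analysed here.

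In glucuronidation, a UGT in the membrane of the endoplasmic reticulum moves glucuronic acid from UDP-glucuronic acid to its substrate, and UGT1A1 is the enzyme that conjugates bilirubin. In sulfation, a cytosolic SULT moves a sulfonate group from the donor PAPS to phenols, steroids and bile acids. A GST joins the thiol of glutathione to electrophiles, among them products of lipid peroxidation. Ugt1a genes are unusual in their layout: each has its own promoter and first exon, and all share the exons that follow. Other members lie side by side in gene clusters and resemble their neighbours, so that reads can fit several of them.

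The total of estimated counts was 20086004 to 22495449 per mouse, and the 54 genes took 1.01% to 1.43% of it. Of these genes, 45 had enough counts to be tested: 18 UGT, 7 SULT and 20 GST genes. The other 9 were Gstt4, Gsto2, Sult1e1, Sult2b1, Sult3a1, Sult4a1, Sult6b1, Ugt1a2 and Ugt2a2, and none of them was above 1.08 TPM in any mouse. Since the filter keeps genes by their counts in the 9 mice, the counts below are of the 45 tested genes and not of all 54. TPM (transcripts per 1e6 transcripts) scale reads by transcript length and by the total of a library, and levels are given as TPM. Fold changes come from edgeR's quasi-likelihood test, fitted to 13619 genes of all 9 mice with TMM scaling, in which the median gene is nearly level between groups. A gene was called where the adjusted p was under 0.05 and the log2 fold change was above 1 in size. In NASH against Control the median over all genes was a log2 fold change of 0.01 with TMM, 0.36 with scaling by library size and 0.34 on the log2(TPM + 1) scale, so a gene can be level in TPM and lower in the fit.

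Per length, GST transcripts were the most abundant of the 3 classes in every mouse. Summed TPM of the GST genes was 9037 to 13900 in Control mice, 13670 to 18900 in NASH mice and 12840 to 16010 in NASH+Exercise mice. The ranges of Control and NASH mice overlap. Without Gstp1 alone, the same sum was 4567 to 6117 in Control mice, 8233 to 11200 in NASH mice and 5350 to 5637 in NASH+Exercise mice. All 3 NASH mice then lay above the other 6. Leaving out Gstp1 was chosen with earlier results of these data known. Gstm1 made up most of the remaining sum in the NASH mice, at 5408 to 7983 TPM. On the log2(TPM + 1) scale the median of all genes was itself 0.34 higher in NASH than in Control mice. The UGT sum was 2298 to 3016 TPM in Control mice, 1983 to 2204 in NASH mice and 1931 to 2315 in NASH+Exercise mice. Each NASH mouse was below each Control mouse in the UGT sum, and the 3 trained mice spanned the NASH range. The SULT sum, 583 to 980 TPM in Control mice, 543 to 839 in NASH mice and 491 to 744 in NASH+Exercise mice, overlapped between all 3 groups. In bulk liver RNA, fewer hepatocytes and less RNA per hepatocyte cannot be told apart.

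**Figure D1:**
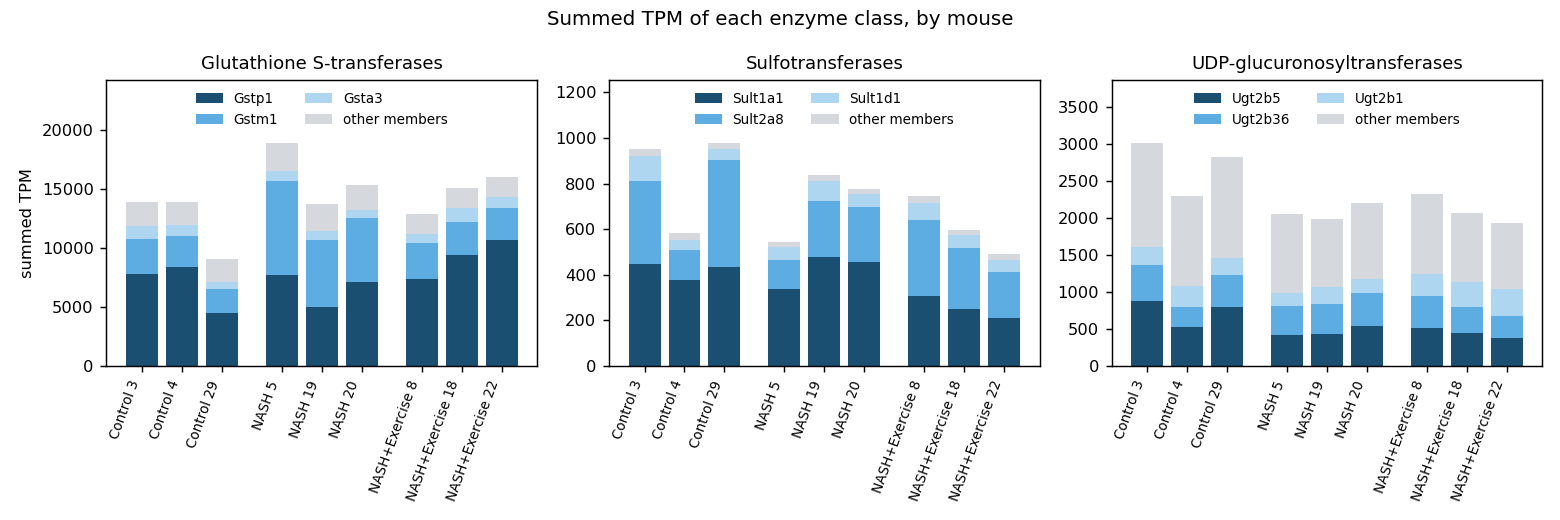
Summed TPM of the GST, SULT and UGT genes in each of the 9 mice, with the 3 most abundant genes of each class in blue and the other members in grey. Gstm1 fills more of the GST bar in the 3 NASH mice (5408 to 7983 TPM) than in the other 6 mice (2065 to 2981 TPM).

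The first comparison asked what 20 weeks of Ath diet did to these genes. More of them fell than rose: 10 of 45 were called down and 3 were called up in NASH against Control. Among all genes tested, 3.03% were called down and 15.3% were called up. With scaling by library size in place of TMM, 7 members were called down and 5 up. The median log2 fold change was −0.90 for UGT, −0.48 for SULT and −0.52 for GST genes, beside 0.01 for all genes. The 11 tested hepatocyte markers had a median of −0.52, near those of the SULT and GST genes. Relative to the median of all genes, the median of the 45 was −0.60 with TMM, −0.60 with library size and −0.47 on the log2(TPM + 1) scale. On the adjusted p alone, 20 members were lower (14.4% of all genes) and 6 were higher (21.2% of all genes). On the TMM scale all 3 NASH mice were below all 3 Control mice for 24 members (22.2% of all genes) and above them for 6 (27.4%).

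**Figure D2:**
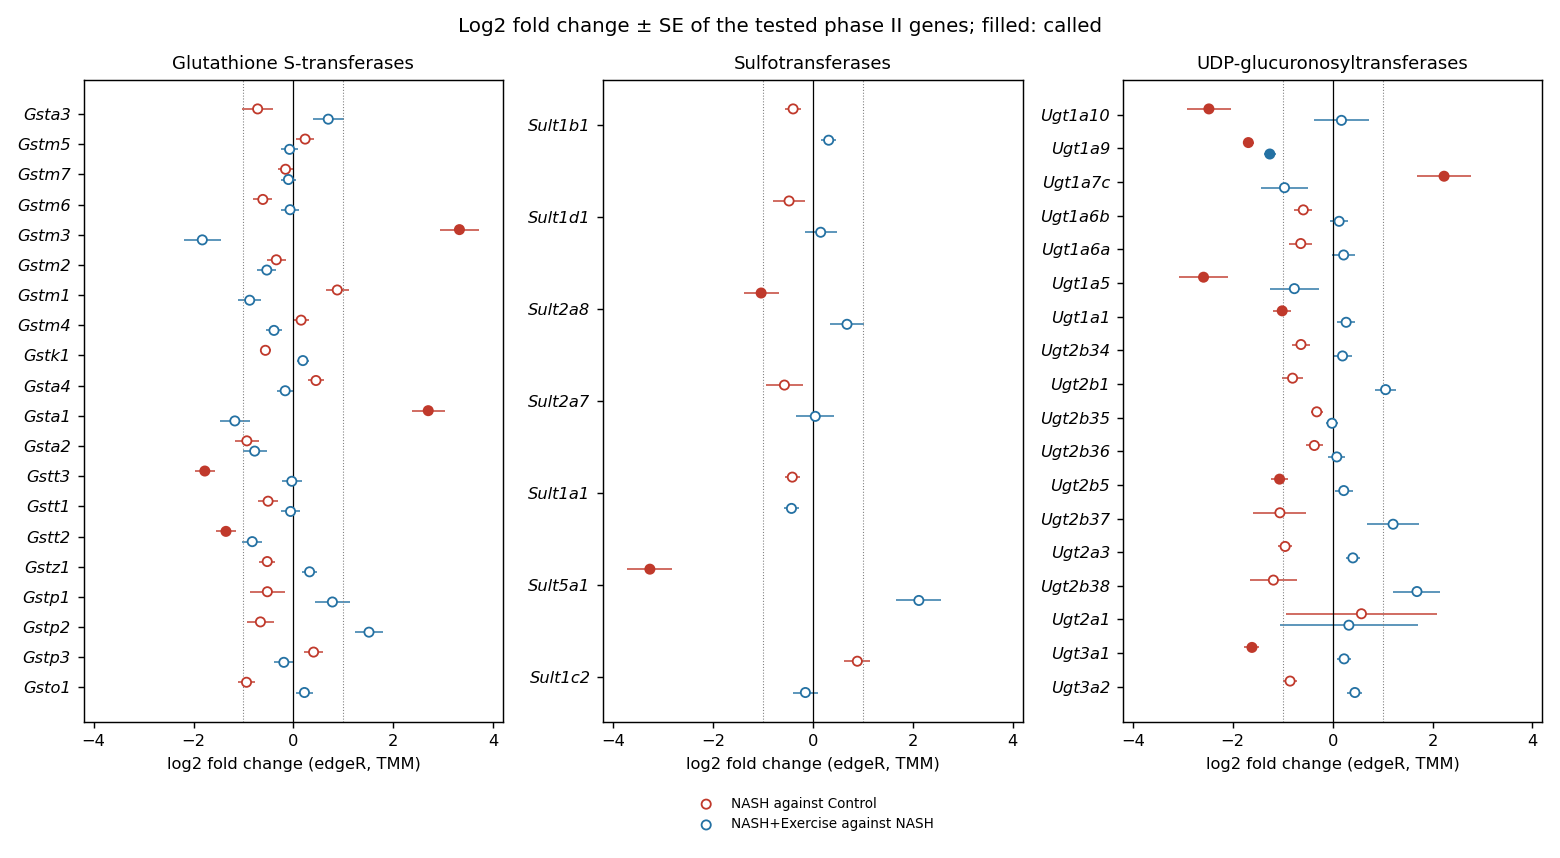
Log2 fold change ± SE of the 45 tested genes in NASH against Control (red) and NASH+Exercise against NASH (blue), each class in chromosomal order. Filled points were called, and dotted lines mark a log2 fold change of 1 in size. Of the 13 red filled points 10 lie to the left, and Ugt1a9 has the only blue one.

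Of the 10 members called down 6 were UGT genes, and 1 UGT gene was called up, of 18 tested. All genes had 3.03% called down and 15.3% called up. Among the 6 UGT genes called down, 4 were Ugt1a genes that share exons, and with such copies summed 2 UGT, 2 SULT and 2 GST genes were called down. Ugt1a9, which conjugates phenols and many drugs, fell from 30.1, 27.9 and 35.2 TPM in the Control mice to 14.3, 12.8 and 11.9 TPM in the NASH mice. Its log2 fold change was −1.69 ± 0.12 (SE, n = 3 mice per group; adjusted p = 6.34e-06, edgeR). The groups were far apart, and no NASH mouse reached 15 TPM while no Control mouse was under 27 TPM. Ugt1a5 fell further, from 30.5, 20.8 and 26.2 TPM to 5.40, 2.17 and 9.36 TPM, with a log2 fold change of −2.59 ± 0.49 (adjusted p = 0.00304, edgeR). The spread within the NASH group was wide for Ugt1a5, yet its highest NASH mouse was below its lowest Control mouse. Ugt3a1, whose enzyme uses UDP-N-acetylglucosamine as the sugar donor, fell from 71.3, 63.9 and 75.4 TPM to 31.0, 27.1 and 34.9 TPM, with a log2 fold change of −1.62 ± 0.15 (adjusted p = 2.74e-05, edgeR). Its neighbour Ugt3a2 had a log2 fold change of −0.85 and an adjusted p of 0.00136 in edgeR, short of the fold threshold.

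Ugt2b5, of the family that conjugates steroids and bile acids, was the most abundant UGT gene, with 876, 528 and 801 TPM in Control mice. It fell to 420, 438 and 543 TPM in NASH mice, with a log2 fold change of −1.06 ± 0.18 (adjusted p = 0.00107, edgeR). On the TPM scale the lowest Control mouse and the highest NASH mouse cross for Ugt2b5, and without Control replicate 3 its log2 fold change was −0.92, short of the threshold. The call was also lost with scaling by library size (−0.73) and in limma on either TPM scale (−0.63). Ugt2b36, the next in abundance, was at 395 ± 108 TPM in Control and 407 ± 28.3 TPM in NASH mice (SD, n = 3) and was not called. Ugt2b1, the third, was at 251 ± 28.3 and 199 ± 28.2 TPM (SD, n = 3), with a log2 fold change of −0.80 and an adjusted p of 0.0121 in edgeR. On the adjusted p alone 11 UGT genes were lower (14.4% of all genes) and 1 was higher (21.2% of all genes). These include Ugt1a genes, among which the reads of shared exons are divided, so they are not separate observations.

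Ugt1a1, which makes bilirubin glucuronide, lay just past the threshold. Its level went from 295, 313 and 326 TPM in Control mice to 234, 172 and 219 TPM in NASH mice, with a log2 fold change of −1.01 ± 0.18 (adjusted p = 0.00139, edgeR). The call of Ugt1a1 was lost without Control replicate 4, without NASH replicate 19, with scaling by library size and in both TPM fits. Its values per mouse were added after they had been seen, as the enzyme has the best known substrate of the class. Ugt1a6b, which conjugates small phenols, was at 224 ± 27.2 TPM in Control and 203 ± 16 TPM in NASH mice (SD, n = 3). It passed the adjusted p alone, with a log2 fold change of −0.59 and an adjusted p of 0.0269 in edgeR. Ugt1a10 and Ugt1a7c were called in opposite directions, and both rest on few reads. Ugt1a10 had 12.5, 17.3 and 14.8 estimated counts in Control mice and 2.29, 4.93 and 2.52 in NASH mice (log2 fold change −2.48 ± 0.45, adjusted p = 0.00169, edgeR). Ugt1a7c had 2.27, 9.45 and 6.74 estimated counts in Control mice and 25.2, 43.0 and 44.3 in NASH mice (log2 fold change 2.23 ± 0.54, adjusted p = 0.0089, edgeR).

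Among the 7 tested SULT genes, 2 were called down and 0 up, beside 3.03% and 15.3% of all genes. At an unadjusted p under 0.05 edgeR had 4 lower and 1 higher, beside 2704 and 3466 of all 13619 genes. DESeq2 also called 0 SULT genes up, and scaling by library size and limma on log2(TPM + 1) each called Sult1c2 up. Sult5a1, an enzyme of little known substrate, fell from 7.53, 12.7 and 7.24 TPM in Control mice to 0.990, 1.96 and 1.10 TPM in NASH mice. The log2 fold change of −3.27 ± 0.45 (adjusted p = 0.000347, edgeR) was the lowest of the 45 genes, at a low level in every mouse. Sult2a8, a bile acid sulfotransferase of mouse liver, was at 362, 132 and 471 TPM in Control mice and 130, 243 and 238 TPM in NASH mice. These groups overlapped, and the log2 fold change of −1.04 ± 0.35 had an adjusted p of 0.0423 in edgeR. The call of Sult2a8 was lost when any 1 mouse other than Control replicate 4 was left out, with adjusted p between 0.0502 and 0.122. Sult1a1, the phenol sulfotransferase and the most abundant SULT gene, was at 419 ± 37.6 TPM in Control and 424 ± 76.9 TPM in NASH mice (SD, n = 3). On the TMM scale its log2 fold change was −0.42, with an adjusted p of 0.0529 in edgeR. Sult1d1, which sulfates catecholamines, was at 68.4 ± 37.8 and 66.9 ± 18.4 TPM (SD, n = 3).

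GST genes went both ways, with 2 called up and 2 called down of 20 tested, beside 15.3% up and 3.03% down of all genes. Gstm3, a mu-type transferase, rose from 34.3, 23.3 and 15.5 TPM in Control mice to 457, 359 and 195 TPM in NASH mice. Its log2 fold change was 3.32 ± 0.39 (adjusted p = 0.000186, edgeR), the highest of the 45 genes. All 3 NASH mice were well above all Control mice, but they differed by more than a factor of 2 among themselves. Gsta1, an alpha-type transferase, rose from 9.38, 3.63 and 4.99 TPM to 70.1, 53.1 and 33.9 TPM, with a log2 fold change of 2.70 ± 0.33 (adjusted p = 0.000195, edgeR). The NASH mouse with the highest Gstm3 level, replicate 5, also had the highest levels of Gsta1 and Gstm1.

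Gstt3, a theta-type transferase, fell from 45.4, 40.9 and 36.1 TPM in Control mice to 15.1, 14.8 and 18.7 TPM in NASH mice (log2 fold change −1.77 ± 0.20, adjusted p = 9.28e-05, edgeR). Gstt2, of the same cluster on chromosome 10, fell from 73.4, 71.8 and 104 TPM to 35.0, 37.5 and 57.3 TPM (log2 fold change −1.35 ± 0.20, adjusted p = 0.000573, edgeR). Neither gene had a NASH mouse at or above a Control mouse, and the call of Gstt2, but not that of Gstt3, was lost in limma on either TPM scale. Gstt1, between them, was at 292 ± 36.1 TPM in Control and 280 ± 36.8 TPM in NASH mice (SD, n = 3). It was not called, with a log2 fold change of −0.51 and an adjusted p of 0.0683 in edgeR. The 4 Gstt genes lie within chr10:75774117-75837419 of GRCm38.p6, and the fourth, Gstt4, was too low to test.

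The most abundant GST genes were not called. Gstp1, the pi-type transferase, was the most abundant of all 54 genes, with 6878 ± 2110 TPM in Control and 6614 ± 1410 TPM in NASH mice (SD, n = 3). Gstm1, the main mu-type transferase of liver, was at 2969, 2558 and 2065 TPM in Control mice and 7983, 5663 and 5408 TPM in NASH mice. The TPM of every NASH mouse was higher than that of every Control mouse, while the log2 fold change on the TMM scale was 0.88 ± 0.23 (adjusted p = 0.0135, edgeR), short of the fold threshold. With scaling by library size Gstm1 was called up. Gsta3, whose enzyme conjugates aflatoxin epoxide in mice, was at 888 ± 299 and 749 ± 47.8 TPM (SD, n = 3). Gsta4, which acts on 4-hydroxynonenal from lipid peroxidation, passed the adjusted p alone, with a log2 fold change of 0.45 and an adjusted p of 0.048 in edgeR. Gsto1, of the omega type, had a log2 fold change of −0.94 with an adjusted p of 0.00161, and Gstz1, which acts in tyrosine breakdown, had −0.52 with an adjusted p of 0.0255.

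**Figure D3:**
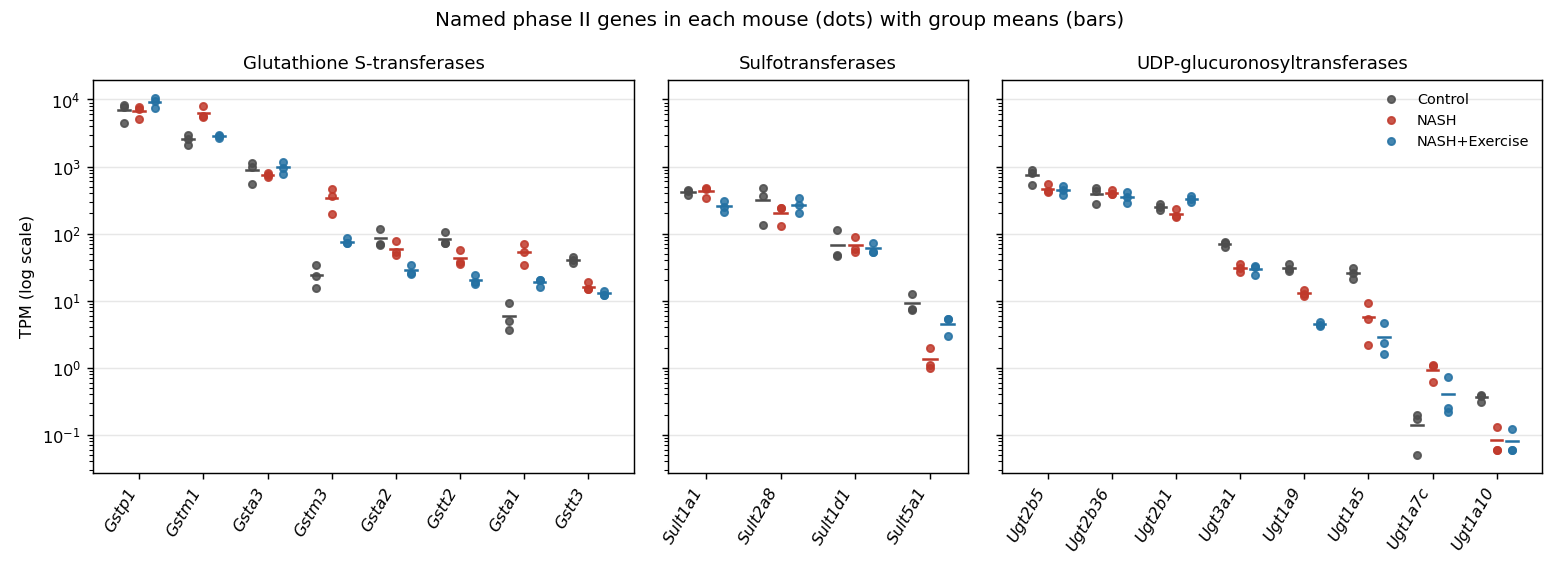
TPM of 20 named genes in each mouse on a log axis (dots) with group means (short bars), in Control (grey), NASH (red) and NASH+Exercise (blue) mice. Gstm3 and Gsta1 stand highest in the NASH mice, Sult5a1 stands lowest there, and Ugt1a9, Gstt2 and Gsta2 step down from Control through NASH to NASH+Exercise in group mean.

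The second comparison asked what 8 weeks of training changed under the Ath diet. A single member was called, Ugt1a9, which was lower in NASH+Exercise mice, and 0 members were called up. Among all genes, 0.0367% were called down and 0.103% were called up. At an unadjusted p under 0.05, edgeR had 9 of 45 members higher and 9 lower, beside 626 higher and 1452 lower of all 13619 genes. DESeq2, run on 9 or on 6 mice, called 4 members up, namely Gstp2, Sult5a1, Ugt2b1 and Ugt2b38, and 3 down, namely Gsta1, Gstm3 and Ugt1a9. On 6 mice DESeq2 called 0.58% of all genes up and 0.937% down. The median log2 fold change was 0.22 for UGT, 0.15 for SULT and −0.09 for GST genes, beside −0.03 for all genes and 0.25 for hepatocyte markers. On the log2(TPM + 1) scale the UGT and SULT medians were −0.06 and −0.12, beside −0.26 for all genes, so their sign depended on the scaling. This comparison shares its NASH mice with the first, so that a high or low NASH mouse moves both in opposite directions.

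Ugt1a9 stood at 4.73, 4.38 and 4.13 TPM in the NASH+Exercise mice, under the 11.9 to 14.3 TPM of the NASH mice and the 27.9 to 35.2 TPM of the Control mice. The log2 fold change against NASH was −1.26 ± 0.12 (adjusted p = 0.00719, edgeR), and the trained mice were close to each other. Without NASH+Exercise replicate 18 the log2 fold change was −1.26 with an adjusted p of 0.0663, and without NASH replicate 20 it was −1.28 with an adjusted p of 0.0584. The call was therefore lost without either of these mice and kept without any other, while the size stayed.

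Several genes that differed between NASH and Control had values between those groups in the trained mice and were not called. Gstm3 was at 71.3, 71.3 and 85.4 TPM in NASH+Exercise mice, below the lowest NASH mouse at 195 TPM, with a log2 fold change of −1.82 ± 0.36 and an adjusted p of 0.112 in edgeR. Gsta1 was at 20.6, 20.0 and 16 TPM, below the lowest NASH mouse at 33.9 TPM, with a log2 fold change of −1.17 ± 0.30 and an adjusted p of 0.145. Sult5a1 was at 2.93, 5.36 and 5.26 TPM, above the highest NASH mouse at 1.96 TPM, with a log2 fold change of 2.12 ± 0.45 and an adjusted p of 0.116. None of these passed the adjusted p in edgeR, and DESeq2 called all 3.

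Gstm1 was at 2981, 2804 and 2673 TPM in the NASH+Exercise mice, within 2065 to 7983 TPM of the other mice and below every NASH mouse. Its log2 fold change against NASH was −0.88 ± 0.23 with an adjusted p of 0.147 in edgeR. Gstp1 went the other way, with 7389, 9405 and 10656 TPM against 7706, 5025 and 7110 TPM in NASH mice (log2 fold change 0.78 ± 0.34, adjusted p = 0.317, edgeR), and the groups overlapped in TPM. The ratio of Gstm1 to Gstp1 within a mouse, which needs no scaling between libraries, was 0.305 to 0.462 in Control mice, 0.761 to 1.13 in NASH mice and 0.251 to 0.403 in NASH+Exercise mice. The NASH mice stood apart from the other 6 in this ratio. Ugt2b1 was at 297, 330 and 364 TPM in the trained mice and at 179, 231 and 186 TPM in NASH mice, with a log2 fold change of 1.06 ± 0.21 and an adjusted p of 0.102 in edgeR. Each trained mouse was above each NASH and each Control mouse for Ugt2b1.

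A few genes moved from NASH to NASH+Exercise in the direction they had taken from Control to NASH. Besides Ugt1a9, these included Gstt2, at 24.4, 18.8 and 17.9 TPM in the trained mice (log2 fold change against NASH −0.82 ± 0.21, adjusted p = 0.135, edgeR), and Gsta2, at 34.0, 25.8 and 25.3 TPM (−0.78 ± 0.24, adjusted p = 0.197, edgeR). For both genes all 3 trained mice were below all 3 NASH mice. Sult1a1 was at 306, 251 and 211 TPM in trained and 336, 479 and 458 TPM in NASH mice, with a log2 fold change of −0.43 ± 0.15 and an adjusted p of 0.229 in edgeR. Its direction from Control to NASH depended on the scaling, with −0.42 on the TMM scale and 0.007 in limma on either TPM scale. The mean level of Sult1a1 was 419 TPM in Control and 424 TPM in NASH mice. On the TMM scale 10 members were higher in every trained than in every NASH mouse (9.16% of all genes) and 8 were lower (14.9%).

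The third comparison set the trained mice on Ath diet against Control, which differed in diet and training together. Here 7 members were called down and 2 up, beside 3.07% and 10.4% of all genes. On the adjusted p alone, 15 were lower (9.58% of all genes) and 3 were higher (15.6%). The 2 called up were Gsta1 (log2 fold change 1.53 ± 0.33, adjusted p = 0.0074, edgeR) and Gstm3 (1.5 ± 0.37, adjusted p = 0.0153, edgeR). Both were called up in NASH against Control as well. Those called down were Ugt1a5, Ugt1a9, Ugt1a10, Ugt3a1, Gstt2, Gstt3 and Gsta2, of which 6 were also called down in NASH against Control. The 2 comparisons share the Control mice. Gsta2, the one that was not, had a log2 fold change of −1.71 ± 0.25 (adjusted p = 0.000694, edgeR), from 118, 67.7 and 70.7 TPM in Control mice. Ugt1a9 reached −2.95 ± 0.12 (adjusted p = 8.94e-07, edgeR), Ugt1a5 −3.35 ± 0.51 (adjusted p = 0.00134, edgeR) and Gstt2 −2.18 ± 0.21 (adjusted p = 6.55e-05, edgeR). Of the SULT genes 0 were called in edgeR, and DESeq2 called Sult5a1 down. At an unadjusted p under 0.05 edgeR had 1 SULT gene higher and 2 lower, beside 2822 and 2121 of all 13619 genes. Sult1a1 passed the adjusted p alone, with a log2 fold change of −0.85 and an adjusted p of 0.00225 in edgeR. Class medians were −0.43 for UGT, −0.36 for SULT and −0.22 for GST genes, beside 0.00 for all genes and −0.24 for hepatocyte markers.

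Ugt1a genes are the clearest case of shared sequence among the members. The 8 of them span chr1:88055411-88220002 on the forward strand of GRCm38.p6 and share the end of the locus. Cut into stretches of 50 bases, 58.2% to 100% of each Ugt1a transcript also occurred in another gene, and 62.0% of Ugt1a9. Estimated counts of a single Ugt1a gene therefore depend on how the reads of the shared exons were divided. With the 8 genes summed to 1, the log2 fold change was −0.92 ± 0.18 in NASH against Control (adjusted p = 0.00228, edgeR), 0.17 ± 0.17 in NASH+Exercise against NASH (adjusted p = 0.684) and −0.75 ± 0.17 in NASH+Exercise against Control (adjusted p = 0.00987). None of these sums was called, since each was under 1 in size. Within the sum, Ugt1a9 made up 4.45% to 5.83% of the Ugt1a TPM in Control mice, 2.48% to 3.24% in NASH mice and 1.04% to 1.07% in NASH+Exercise mice, with no overlap between groups. The share of Ugt1a5 was 3.32% to 4.85% in Control mice, 0.551% to 1.95% in NASH mice and 0.417% to 1.04% in NASH+Exercise mice, and the last 2 groups overlapped. Ugt1a1 and Ugt1a6b carried most of the Ugt1a TPM in every mouse.

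Gsta1 and Gsta2 lie on chromosome 9 in opposite orientation and form a second such case. Of the 50-base stretches of Gsta1, 89.7% occurred in another gene, mostly in Gm3776, a gene outside the symbol rule, and 44.6% occurred in Gsta2. Gm3776 was at 1.51, 2.53 and 3.72 TPM in Control mice, 81.4, 60.9 and 33.9 TPM in NASH mice and 14.6, 14.5 and 9.03 TPM in NASH+Exercise mice, in the same order over groups as Gsta1. The ratio of Gsta1 to Gsta2 within a mouse was 0.0536 to 0.0796 in Control mice, 0.696 to 1.01 in NASH mice and 0.606 to 0.777 in NASH+Exercise mice. All mice on Ath diet were thus above all Control mice, and the Ath groups overlapped. Summed with Gm3776 and Gm10639, these genes had a log2 fold change of 0.43 ± 0.25 in NASH against Control (adjusted p = 0.221, edgeR), −1.21 ± 0.26 in NASH+Exercise against NASH (adjusted p = 0.123) and −0.78 ± 0.26 in NASH+Exercise against Control (adjusted p = 0.0498). Gstp1 shared 62.3% of its stretches with Gstp2, whereas Gstm3 and Gstm1 shared 28.8% and 23.1% with other genes. The 7 Gstm genes stand side by side at chr3:107895854-108045179, and edgeR with TMM called Gstm3 alone of them in any of the 3 comparisons.

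**Figure D4:**
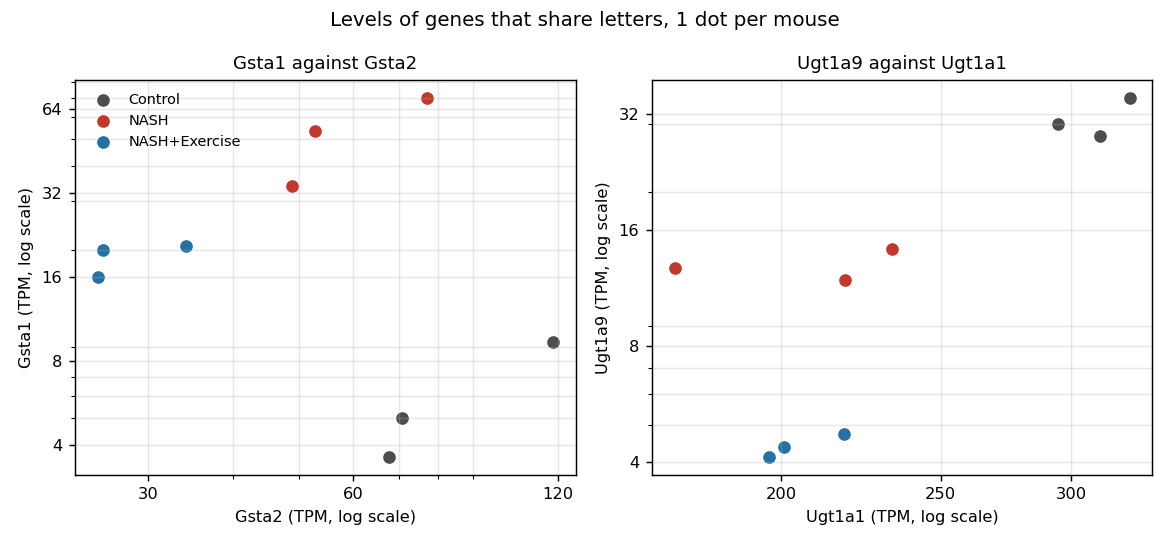
Left, TPM of Gsta1 (vertical) against Gsta2 (horizontal), and right, TPM of Ugt1a9 against Ugt1a1, in each mouse on log axes, coloured by group. Gsta1 separates the 3 groups from bottom to top as Control, NASH+Exercise and NASH, while Ugt1a9 separates them as NASH+Exercise, NASH and Control.

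As each Ugt1a gene starts at its own promoter, the bases before the starts of Ugt1a10 and Ugt1a9, both called down in NASH against Control and in NASH+Exercise against Control, are set side by side. The sequences are from RefSeq on GRCm38.p6, 5′ to 3′ on the forward strand, at chr1:88055261-88055410 and chr1:88070629-88070778, and each ends at the base before the annotated start. Capitals mark letters that differ between the genes or have no partner in a global alignment.
Ugt1a10: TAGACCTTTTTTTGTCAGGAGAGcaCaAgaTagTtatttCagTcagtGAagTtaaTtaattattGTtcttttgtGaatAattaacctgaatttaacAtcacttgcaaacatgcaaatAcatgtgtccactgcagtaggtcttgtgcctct
Ugt1a9: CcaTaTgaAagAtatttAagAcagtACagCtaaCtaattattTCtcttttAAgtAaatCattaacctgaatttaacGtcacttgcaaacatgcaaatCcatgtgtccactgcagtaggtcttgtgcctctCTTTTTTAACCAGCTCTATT

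Over 128 aligned bases, 111 were the same (86.7%), and the bases next to the start of Ugt1a9 had no partner among those shown for Ugt1a10. Of these genes Ugt1a9 was at 27.9 to 35.2 TPM in Control mice, whereas Ugt1a10 was at 0.31 to 0.39 TPM.

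Letters known from the binding sites of 3 kinds of factor were searched on both strands in windows from 250 bases before to 50 after a start, which RefSeq listed for 48 of the 54 members and for 27025 mouse genes. The core of the antioxidant response element, TGACNNNGC, through which NRF2 acts, was found in 3 members (6.25%, beside 14.0% of all genes), namely Gsta3, Gstm5 and Gstm7. The xenobiotic response core GCGTG, which the aryl hydrocarbon receptor binds, was in 10 members (20.8%, beside 35.2% of all genes), Gsta1, Gstm1, Gstp1 and Ugt1a5 among them. The STAT5 letters TTCNNNGAA, their own reverse complement, were in 4 members (8.33%, beside 9.55% of all genes), among them Gsta1. In Gstm5 a match to the xenobiotic core lies inside the match to the antioxidant core. A match in these letters is a description of the sequence, and binding was not measured. Bases outside these windows were not searched, so a gene without a match here may hold one further away.

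In NASH against Control the estimated levels of Gsta1 and Gsta2 went apart although their starts resemble each other. Their upstream bases are set side by side, from chr9:78230519-78230668 on the forward strand and chr9:78347146-78347295 on the reverse strand. The listed start of Gsta2 lies inside the gene's widest RefSeq span, which holds 47 of the bases shown for it. Capitals mark letters that differ between the genes or have no partner in a global alignment.
Gsta1: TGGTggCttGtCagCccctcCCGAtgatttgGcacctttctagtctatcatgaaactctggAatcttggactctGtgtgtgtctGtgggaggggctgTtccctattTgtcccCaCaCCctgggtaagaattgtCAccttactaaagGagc
Gsta2: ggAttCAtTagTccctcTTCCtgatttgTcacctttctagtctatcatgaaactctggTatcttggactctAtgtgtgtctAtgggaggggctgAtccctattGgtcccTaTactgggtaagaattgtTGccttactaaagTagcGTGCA

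Over 144 aligned bases, 125 were the same (86.8%). Gsta1 was called up in NASH mice, while Gsta2 had a log2 fold change of −0.93 and an adjusted p of 0.0123 there. As these genes share letters, that difference depends on how shared reads were divided. With the linked copies summed, the log2 fold change was 0.43 ± 0.25 (adjusted p = 0.221, edgeR).

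Around the 3 enzyme classes, 97 genes for their cosubstrates, for other conjugations and for the transport and control of these reactions were tested. In NASH against Control 8 were called up and 9 down, beside 15.3% and 3.03% of all genes tested. In NASH+Exercise against Control 9 were called up and 8 down, beside 10.4% and 3.07% of all genes. In NASH+Exercise against NASH edgeR called 0. At an unadjusted p under 0.05, 11 were higher and 11 lower there, beside 626 and 1452 of all 13619 genes. In the last comparison DESeq2 called Inmt, Nat8 and Nnmt up and Abcb1a and Slco1a4 down, and limma on log2(TPM + 1) called Slco1a4 down. The supply of UDP-glucuronic acid showed no called gene in any comparison. Its 8 genes include Ugp2 and Ugdh, which make the donor. At an unadjusted p under 0.05, edgeR had 2 of them lower in NASH against Control. It had 2 higher in NASH+Exercise against NASH and 2 higher in NASH+Exercise against Control. Among all 13619 genes these counts were 2704, 626 and 2822. DESeq2 called 0 of the 8 as well. The median log2 fold change of these 8 genes in NASH against Control was −0.11, beside 0.01 for all genes. In the supply of PAPS, 1 of 8 genes was called, the PAPS synthase gene Papss1, which was at 4.42 ± 0.428 TPM in Control mice, 10.6 ± 2.16 TPM in NASH mice and 10.1 ± 1.66 TPM in NASH+Exercise mice (SD, n = 3). Papss1 was called up in NASH+Exercise against Control (log2 fold change 1.03, adjusted p = 0.00231, edgeR) and passed the adjusted p alone in NASH against Control (0.79, adjusted p = 0.0075), where limma on log2(TPM + 1) called it.

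Genes for glutathione went both ways, with 2 up and 2 down of 17 tested in each comparison against Control. Of all genes 15.3% were called up and 3.03% down in NASH against Control, and 10.4% and 3.07% in NASH+Exercise against Control. The median of the 17 genes was −0.04 in NASH against Control. Cth, which makes cysteine by transsulfuration, fell from 470 ± 45.7 TPM in Control to 202 ± 41.9 TPM in NASH mice and stood at 130 ± 14.3 TPM in NASH+Exercise mice (SD, n = 3). Its log2 fold change in NASH against Control was −1.66 (adjusted p = 2.51e-05, edgeR). Oplah, which returns oxoproline to glutamate, fell from 103 ± 11 to 53.3 ± 7.80 TPM (log2 fold change −1.37, adjusted p = 0.000118, edgeR). Chac1, which breaks glutathione down, rose from 1.27 ± 0.442 to 14.1 ± 14.3 TPM, with a wide spread in NASH mice (log2 fold change 3.04, adjusted p = 0.0123, edgeR). Slc7a11, the cystine importer, was called up but was close to 0 in Control livers, with 1.06, 0.00 and 0.00 estimated counts there, 30.4, 52.5 and 52.6 in NASH mice and 25.6, 17 and 8.24 in NASH+Exercise mice. Gclc, for the first step of glutathione synthesis, was at 207 ± 49.3 TPM in Control mice, 209 ± 44.6 TPM in NASH mice and 143 ± 45.9 TPM in NASH+Exercise mice (SD, n = 3) and was not called.

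**Figure D5:**
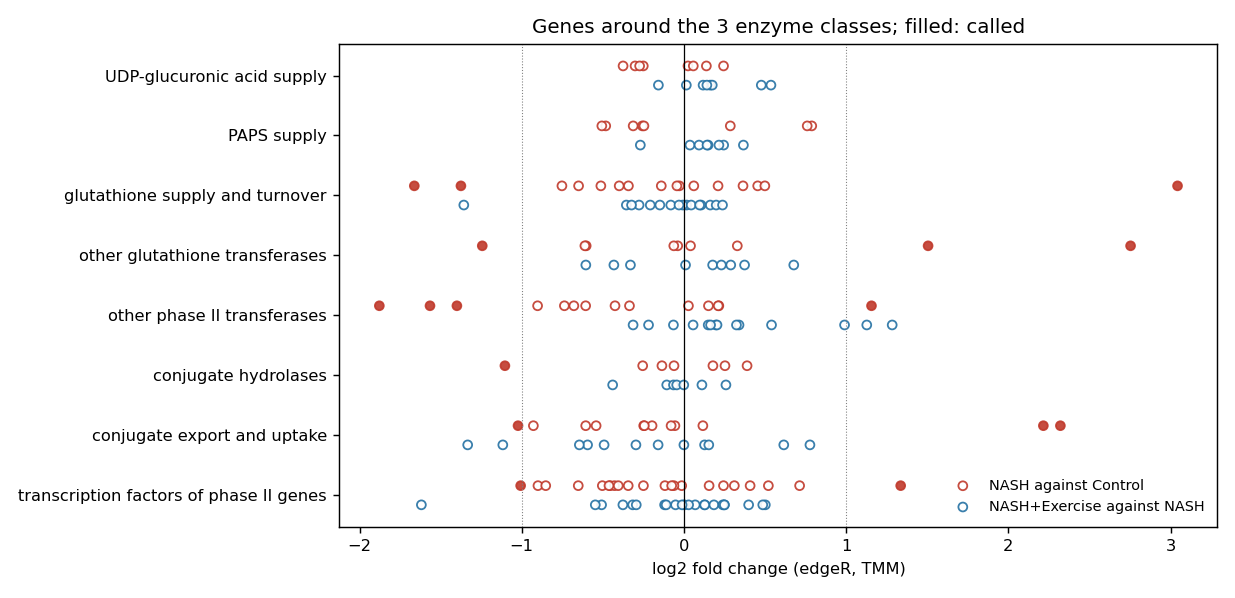
Log2 fold change of the tested genes of 8 lists around the 3 enzyme classes in NASH against Control (red) and NASH+Exercise against NASH (blue), with called genes filled. Slc7a11 is left out because it is close to 0 counts in Control mice, and no blue point is filled.

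Other transferases and transporters had calls in both directions. Of 14 other phase II genes 1 was called up and 3 down in NASH against Control, beside 15.3% and 3.03% of all genes, with a median of −0.52. On the adjusted p alone 8 of them were lower (14.4% of all genes) and 1 was higher (21.2% of all genes). Nnmt, which methylates nicotinamide, fell from 207 ± 17 to 77.8 ± 41.8 TPM (SD, n = 3; log2 fold change −1.88, adjusted p = 0.00262, edgeR), and Ephx2, an epoxide hydrolase, from 1320 ± 77.7 to 674 ± 120 TPM (log2 fold change −1.40, adjusted p = 0.000391). Nat8, which acetylates cysteine conjugates on the way to mercapturic acids, fell with a log2 fold change of −1.57 (adjusted p = 0.00427, edgeR), while Hnmt, which methylates histamine, rose with 1.16 (adjusted p = 0.00102). Among 9 other glutathione transferases and relatives, the prostaglandin D synthase gene Hpgds and Clic1, a chloride channel relative of the omega type, were called up and the leukotriene C4 synthase gene Ltc4s down. Among 7 conjugate hydrolases and esterases, Ces2a was called down, with a log2 fold change of −1.10 (adjusted p = 0.0153, edgeR). Of 12 transporters, the exporters Abcc1 (log2 fold change 2.22, adjusted p = 4.97e-05, edgeR) and Abcb1a (2.32, adjusted p = 0.000127) rose in NASH mice and the uptake carrier Slco1a1 fell (−1.02, adjusted p = 0.0276). Both exporters were low, with Abcc1 at 0.347 ± 0.0577 TPM in Control and 2.23 ± 0.255 TPM in NASH mice (SD, n = 3). Abcb1a was at 0.487 ± 0.206 and 3.21 ± 0.588 TPM in the same order. In NASH+Exercise against Control the uptake carrier Slco1a4 fell from 29.9 ± 8.60 to 6.93 ± 2.78 TPM and the conjugate exporter Abcc3 from 89.0 ± 13.8 to 44.6 ± 17.6 TPM (SD, n = 3), with log2 fold changes of −2.26 (adjusted p = 0.000367, edgeR) and −1.19 (adjusted p = 0.0042).

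Of 22 transcription factors known to act on these genes, 1 was called up and 1 down in NASH against Control, beside 15.3% and 3.03% of all genes. In NASH+Exercise against Control 0 were called up and 3 down, beside 10.4% and 3.07%. There 3 were higher at an unadjusted p under 0.05, beside 2822 of all 13619 genes, and DESeq2 called Maff up. Nr1i3, the xenobiotic receptor CAR, fell from 193 ± 13.3 TPM in Control to 129 ± 37.6 TPM in NASH mice and was at 97.1 ± 27.0 TPM in NASH+Exercise mice (SD, n = 3). Its log2 fold change was −1.01 (adjusted p = 0.00506, edgeR) in NASH mice and −1.13 (adjusted p = 0.00383) in NASH+Exercise mice, both against Control. Nr1i2, the receptor PXR, was at 77.9 ± 13.1, 73.0 ± 7.61 and 41.6 ± 6.22 TPM in the same order and was called in NASH+Exercise against Control (log2 fold change −1.01, adjusted p = 0.0012, edgeR). Maff, a small partner of NRF2, was called up in NASH against Control (log2 fold change 1.34, adjusted p = 0.0385, edgeR), and Cux2, at 0.263 ± 0.162 TPM in Control mice and 0.07 ± 0.0361 TPM in NASH+Exercise mice (SD, n = 3), was called down in NASH+Exercise against Control (−2.05, adjusted p = 0.021, edgeR). Nfe2l2, which encodes NRF2, passed the adjusted p alone in NASH against Control, with a log2 fold change of 0.52 (adjusted p = 0.0338, edgeR). Ahr was at 6.57 ± 0.875 TPM in Control and 8.89 ± 3.20 TPM in NASH mice (SD, n = 3) and was not called.

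Marker transcripts of several other cell types were called up in NASH against Control in the same livers. Among all genes tested, 15.3% were called up in NASH against Control and 10.4% in NASH+Exercise against Control. Of 12 macrophage markers 11 were called up in NASH against Control and 10 in NASH+Exercise against Control, and their summed TPM was 89.2 to 183 in Control mice, 1360 to 1770 in NASH mice and 890 to 1130 in NASH+Exercise mice. Neutrophil markers were called up for 8 of 10 genes (8.81 to 16.3 TPM in Control mice, 104 to 136 in NASH mice and 57.4 to 97.6 in NASH+Exercise mice), with Camp at 0 in all Control mice. T and NK cell markers were called up for 9 of 9 tested genes (5.72 to 12.8, 74.4 to 112 and 25.3 to 43.6 TPM), and B cell markers for 0 of 6 (4.46 to 9.09, 9.95 to 15.7 and 3.78 to 10.7 TPM). Cholangiocyte markers were called up for 5 of 10 tested genes, with 44.1 to 57.1 TPM in Control mice, 154 to 613 in NASH mice and 83.0 to 146 in NASH+Exercise mice. Stellate cell markers were called up for 4 of 12 genes (112 to 251, 307 to 477 and 199 to 279 TPM) and sinusoidal endothelial markers for 2 of 12 (96.1 to 179, 186 to 253 and 134 to 196 TPM). The share of endothelial markers called in NASH against Control was close to that of all genes. The counts from neutrophil markers on are those of NASH against Control. In NASH+Exercise against Control 8 neutrophil, 7 T and NK cell, 3 stellate cell and 1 cholangiocyte markers were called up. Of the B cell and endothelial markers 0 were called up there. In NASH against Control the B cell list had 1 gene higher at an unadjusted p under 0.05 in edgeR, beside 3466 of all 13619 genes. DESeq2 called 0 genes of that list. In NASH+Exercise against NASH edgeR called 0 of 82 markers of these cells and of hepatocytes, and DESeq2 called 4 down. At an unadjusted p under 0.05 edgeR had 0 of the 82 higher and 17 lower, beside 626 and 1452 of all 13619 genes. Hepatocyte markers, of which 11 were tested, had 0 called in NASH against Control by edgeR. At an unadjusted p under 0.05 edgeR had 7 lower there, beside 2704 of all 13619 genes, and DESeq2 on 6 mice called 2 down. Their median log2 fold change in that comparison was −0.52. In NASH+Exercise against Control edgeR called 1 of them down, beside 3.07% of all genes. Their summed TPM was 141000 to 150000 in Control mice, 124000 to 149000 in NASH mice and 112000 to 134000 in NASH+Exercise mice. The part of these other cells in the values of the phase II genes was not tested.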

How the data were processed

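Liver mRNA of 9 mice, 3 per group and 1 library per mouse, had been sequenced. For each Entrez gene the authors deposited RSEM-type estimated counts, TPM and FPKM (FPKM not used), and the submitters' notes name HISAT2 2.1.0, Bowtie2 2.2.5, RSEM 1.2.8 and GRCm38.p6 without their roles. One deposited table repeats the values of all mice, and 0 of 428304 shared values differed. Symbols and coordinates came from RefSeq on GRCm38.p6 (17728 of 17846 genes named).

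Estimated counts were rounded and tested with edgeR 4.0.16 (R 4.3.3, quasi-likelihood, TMM, filterByExpr with minimum counts of 10 per library and 15 in total), with Benjamini-Hochberg adjustment over 13619 genes. SE is the log2 fold change divided by the square root of F. Alternatives used DESeq2 1.42.0, as the study did, and limma 3.58.1 on log2(TPM + 1) and log2(TPM + 0.1). The tests were tried on simulated counts first. Shared letters are stretches of 50 bases of GENCODE transcripts found in another gene, and genes sharing at least 40% were summed together. That grouping was chosen after seeing the data, in place of a protein identity that was not analysed here.

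Values per mouse are given for members called in NASH+Exercise against NASH, for the 4 largest calls per class, comparison and direction, and for the 3 most abundant genes per class. List genes were named where called, up to 4 per list, and a few that were not called, such as Gclc and Ahr, were added for their roles after the values were seen. The members and lists were chosen with earlier results of these data known. Precision is set by 3 mice per group, each a separate animal, and for low genes such as Ugt1a10 also by depth. Some list genes and a motif are not reported here.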

Additional observations from a re-analysis of the deposited data

How the results depend on the processing

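For 40 log2 fold changes of named members (called, or with an unadjusted p under 0.05), 745 values under alternatives were computed; 690 kept their direction and side of the threshold, 23 lost the call, 30 gained it and 2 reversed, and none of the called ones reversed. Both reversals were Sult1a1 in NASH against Control, at 0.007 in limma on either TPM scale. Against 3 members called up and 10 down in NASH against Control, library size gave 5 up (with Gstm1 and Sult1c2 added) and 7 down, limma on log2(TPM + 1) 5 down, limma on log2(TPM + 0.1) 5 up and 6 down, linked copies summed 1 up and 6 down, and adjusted p alone 6 up and 20 down; with 1 mouse left out the counts were 3 to 4 up and 8 to 14 down. In NASH+Exercise against NASH (0 up, 1 down), DESeq2 on 9 or 6 mice gave 4 up and 3 down, limma 2 up and 4 down on log2(TPM + 1) and 3 down on log2(TPM + 0.1), and linked copies summed 0 down, since Ugt1a9 then has no value of its own. With 1 mouse left out it was 0 to 1 up (Gstp2 without NASH+Exercise replicate 8) and 0 to 1 down. In NASH+Exercise against Control (2 up, 7 down), linked copies summed gave 1 up and 3 down and adjusted p alone 15 down, and leaving out 1 mouse 2 to 3 up and 7 to 9 down.

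Of the genes of the pathway lists, 8 up and 9 down in NASH against Control became 5 down with library size, 2 and 3 down in limma on log2(TPM + 1) and log2(TPM + 0.1) and 28 down on the adjusted p alone, and 5 to 8 up and 6 to 12 down with 1 mouse left out (5 up without Control replicate 4). In NASH+Exercise against NASH, where edgeR called 0, DESeq2 on 9 or 6 mice gave 3 up and 2 down and limma on log2(TPM + 1) 1 down, and leaving out 1 mouse gave 0. In NASH+Exercise against Control, 9 up and 8 down became 5 up in limma on log2(TPM + 1), 4 down with library size and 18 down on the adjusted p alone, and 5 to 9 up and 7 to 13 down with 1 mouse left out (5 up and 13 down without Control replicate 29). Except for the linked copies, the cause of these moves was not tested. Summing copies by RefSeq protein identity was not run. No paired analysis was possible because the groups compared share no replicate number. Depth limits Ugt1a10 and Ugt1a7c, which had 2.27 to 44.3 estimated counts per mouse.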
